A study of Bos taurus with 6 samples.

Results

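The miRNAs of the imprinted DLK1-DIO3 locus were examined in the intramuscular fat (IMF) of Qinchuan cattle, in steers (castrated males) and bulls (intact males). The members were the bovine entries of the miRNA count table whose names carry 1 of 36 miRNA numbers known from this locus, with any letter or arm suffix. There were 51 of them among 793 known bovine miRNAs and 8800 sequences in all, and each of the 36 numbers was found. All 51 had a count in at least 1 library, and 37 had a count in every library. In the RefSeq gene order, 50 of the 51 members came from 47 precursor entries lying in 1 stretch of 1 chromosome, among 58 miRNA genes. The other member, miR-544b, had the first of its listed precursors on another chromosome, so it was kept by its name. The place of its other precursor was not looked up.

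The animals were Chinese Qinchuan males by the same sire. Weaning was at 3 months, and the IMF was dissected from the sternomandibularis, a neck muscle, at slaughter at 24 months. The steers had been castrated by surgery at 6 months, and the bulls were left intact, with the same feeding for both groups. Small RNA was measured in 4 libraries, 2 of steers and 2 of bulls (steers 1 and 2, bulls 1 and 2), and mRNA in 1 library of each group. The labels give 1 head behind each small RNA library and 3 heads behind each mRNA library, whereas the design text and the methods describe each library as a pool of several animals, so the p-values measure only the spread between these libraries. The tissue is whole dissected fat. In the mRNA libraries all 8 adipocyte markers were detected, ADIPOQ with 4513 and 6651 counts in steers and bulls, and so were all 8 skeletal muscle markers, ACTA1 with 13852 and 19910 counts. In bulk tissue, fewer cells of a type and less RNA per cell cannot be told apart.

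A mature miRNA is a short RNA that guides an Argonaute protein to messenger RNAs, mainly through its seed, the stretch from base 2 to base 8. The DLK1-DIO3 locus is imprinted, so that each of its genes is read from the chromosome of 1 parent. The paternal copy gives the protein-coding genes DLK1, RTL1 and DIO3, and the maternal copy gives the non-coding RNAs MEG3 and MEG8 and the miRNAs, which are cut from long transcripts of that copy. The locus is best known in livestock from callipyge sheep, whose overgrown hindquarter muscles come from a mutation in it.

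The small RNA libraries held between 6556511 and 10452582 counts. They differed in make-up as well as in depth: miR-143 and miR-10b together took 45.8% of all counts in steers 1, 33.8% in steers 2, 25.8% in bulls 1 and 19.3% in bulls 2. The TMM factors, which correct library size for such differences, ran from 0.746 in steers 1 to 1.42 in bulls 2. These were the libraries standing furthest apart, and results are given without them where that matters. Levels below are CPM, the count of a miRNA scaled to the TMM-corrected size of its library, and adjusted p-values are over all sequences tested. A miRNA was called when edgeR's quasi-likelihood test gave a Benjamini-Hochberg adjusted p under 0.05 and a log2 fold change beyond 1 in size. In this fit the spread between replicates was pooled over the sequences tested. A p-value therefore reflects little of a miRNA's own replicates. Of 1073 sequences tested, 7.08% were called lower in steers and 7.08% higher. The table also holds predicted bovine loci and miRNAs named for other species, and 396 of the sequences tested were known bovine miRNAs. With upper quartile scaling the same test called 52 lower and 101 higher, against 76 and 76 with TMM.

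The sequences that the results turn on are given 5′ to 3′ as DNA letters, from the study's list of known bovine miRNAs, with the seed in capitals. The members called lower in steers carried 3 different seeds:
miR-665: aCCAGTAGgccgaggcccct
miR-411c-5p: gGTTGATCagagaacatacatt
miR-136: aCTCCATTtgttttgatgatgga
miR-665 is the most GC-rich of all 51 members at 70.0%, and miR-136 and miR-411c-5p held 34.8% and 36.4% GC.

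The 6 most abundant members also had a seed each that no other member shares:
miR-127: tCGGATCCgtctgagcttggct
miR-411a: aTAGTAGAccgtatagcgtacg
miR-381: tATACAAGggcaagctctctgt
miR-409b: gGGGTTCAccgagcaacattc
miR-410: aATATAACacagatggcctgt
miR-380-3p: tATGTAATgtggtccacgtct
miR-411a and miR-411c-5p share a number but not a seed, and were measured by separate sequences. The precursor entries of miR-409b and miR-409a cover the same bases in RefSeq, so the reads counted for miR-409b, and their seed, are not certain.

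Across the 51 members there were 48 distinct seeds, and 2 of them were shared. They are shown with miR-376e, which is close in sequence but has another seed, because reads may not be assigned to these copies with certainty:
miR-376a: aTCATAGAggaaaatccacgt
miR-376b: aTCATAGAggaaaatccatgtt
miR-376d: aTCATAGAggaaaatccacat
miR-376e: aACATAGAggaaaatccacatt
miR-544a: aTTCTGCAtttttagcaagttc
miR-544b: aTTCTGCAtttctaacaagttc
Members of the miR-376 group other than miR-376c differed from each other at 1 to 3 bases, and miR-544a and miR-544b at 2.

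The locus contributed a small share of the miRNAs in IMF. Its members summed to 90151 counts in steers 1, 87066 in steers 2, 89542 in bulls 1 and 72499 in bulls 2. This was 0.929% and 1.10% of the known bovine counts in steers, and 1.23% and 1.28% in bulls, so both steers libraries were below both bulls libraries. The log2 ratio of the mean shares, steers over bulls, was -0.31. When miR-143 and miR-10b were left out of the denominator the order turned, with 1.83% and 1.76% in steers against 1.71% and 1.65% in bulls (log2 ratio 0.10). The difference in summed share therefore has a direction only relative to what is counted beside it.

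A pair of miRNAs made up most of the locus. miR-127 and miR-411a together held 92.7% and 90.9% of the locus counts in steers and 90.2% and 88.8% in bulls. miR-127, which lies antisense to RTL1 and is fully complementary to its transcript, was at 5684 and 4653 CPM in steers and 6275 and 4401 CPM in bulls. The groups overlapped, and the log2 fold change was -0.05 (SE 0.46, adjusted p = 0.9617, edgeR). Its sign turned under 4 of 10 other settings, which ran from -0.50 to 0.14. miR-411a, of the miR-379/miR-656 cluster, was at 5038 and 4588 CPM in steers and 4403 and 2501 CPM in bulls. Both steers libraries were above both bulls libraries, but the difference did not pass the test (log2 fold change 0.48, SE 0.47, adjusted p = 0.5259). Fitted with known bovine miRNAs alone, its log2 fold change was 0.65 (SE 0.19, adjusted p = 0.04705, edgeR). That is short of the fold threshold for a call. By mean level miR-127 ranked at place 29, miR-411a at place 33 among the known bovine miRNAs, and the next member, miR-381, at place 97.

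**Figure D1:**
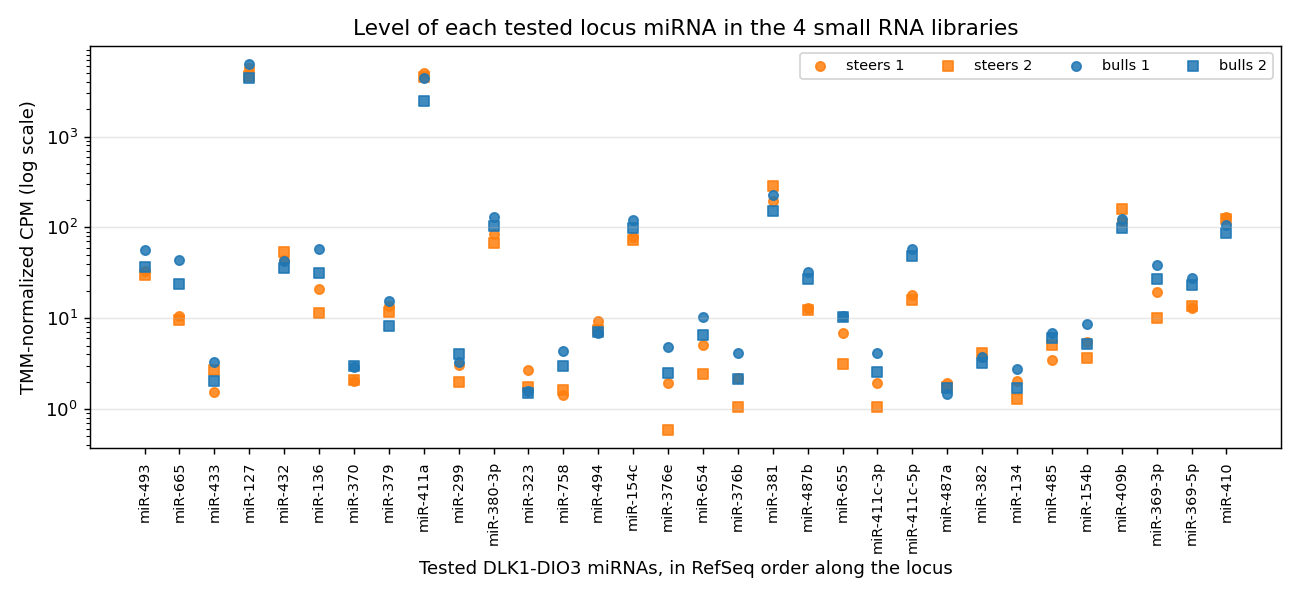
TMM-normalized CPM (log axis) of the 32 tested locus miRNAs in steers 1 and 2 (orange circles and squares) and bulls 1 and 2 (blue circles and squares), in RefSeq order along the locus. miR-127 and miR-411a stand at 2501 CPM or more in every library, and the orange points of miR-665, miR-136 and miR-411c-5p lie below both blue points.

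Of the 51 members, 32 passed the filter on low counts and were tested. 3 of these 32 were called, all lower in steers (9.38%, against 7.08% of all sequences tested), which is a share near the background and no result about the locus as such. None was called higher (0 of 32, against 7.08%), and DESeq2 and limma-voom called the same 3 lower and 0 higher. In the reported edgeR fit no member with a positive fold change had an unadjusted p under 0.05.

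miR-665, from a precursor between MEG3 and RTL1, had counts of 82 and 81 in steers against 329 and 224 in bulls. These were 10.5 and 9.46 CPM against 43.5 and 24.0 CPM, so the lower bulls library was still above both steers libraries. The log2 fold change was -1.75 (SE 0.52, adjusted p = 0.01054, edgeR), a level 3.37-fold higher in bulls. miR-411c-5p, of the miR-379/miR-656 cluster, had counts of 139 and 137 in steers against 440 and 452 in bulls. Its levels were 17.8 and 16.0 CPM against 58.2 and 48.5 CPM, with the bulls libraries closer to each other than for the other called members. The log2 fold change was -1.66 (SE 0.48, adjusted p = 0.009348, edgeR). miR-136, another miRNA antisense to RTL1, had counts of 162 and 97 in steers against 434 and 295 in bulls. At 20.8 and 11.3 CPM against 57.4 and 31.6 CPM its replicates lay apart in both groups, and the groups did not overlap. The log2 fold change was -1.47 (SE 0.49, adjusted p = 0.02603, edgeR).

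All 3 kept their sign under every setting tried, but the calls rested on most of the libraries. They were called again without bulls 2, whereas no fit without steers 1, steers 2 or bulls 1 called any of them. Calls fell over the whole table too, from 7.08% of all sequences called lower to 1.12%, 0.507% and 3.19% in these fits and 3.72% without bulls 2. Without bulls 1, the log2 fold change of miR-665 was -1.08 (adjusted p = 0.2081), that of miR-411c-5p was -1.33 (adjusted p = 0.07117) and that of miR-136 was -0.79 (adjusted p = 0.3921). Without steers 1 they were -1.79, -1.69 and -1.93 (adjusted p = 0.2099, 0.2373 and 0.1668), and without steers 2 they were -1.65, -1.54 and -1.07 (adjusted p = 0.4398, 0.5117 and 0.7312). Scaled by total counts, without TMM, none of the 3 was called, with larger log2 fold changes of -2.17, -2.12 and -1.93 and adjusted p-values of 0.07225, 0.06928 and 0.08038. In that fit the median of all sequences was itself at -0.56. An unadjusted p under 0.05 was reached there by 15 of 32 members and by 298 of all 1073 sequences (edgeR).

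**Figure D2:**
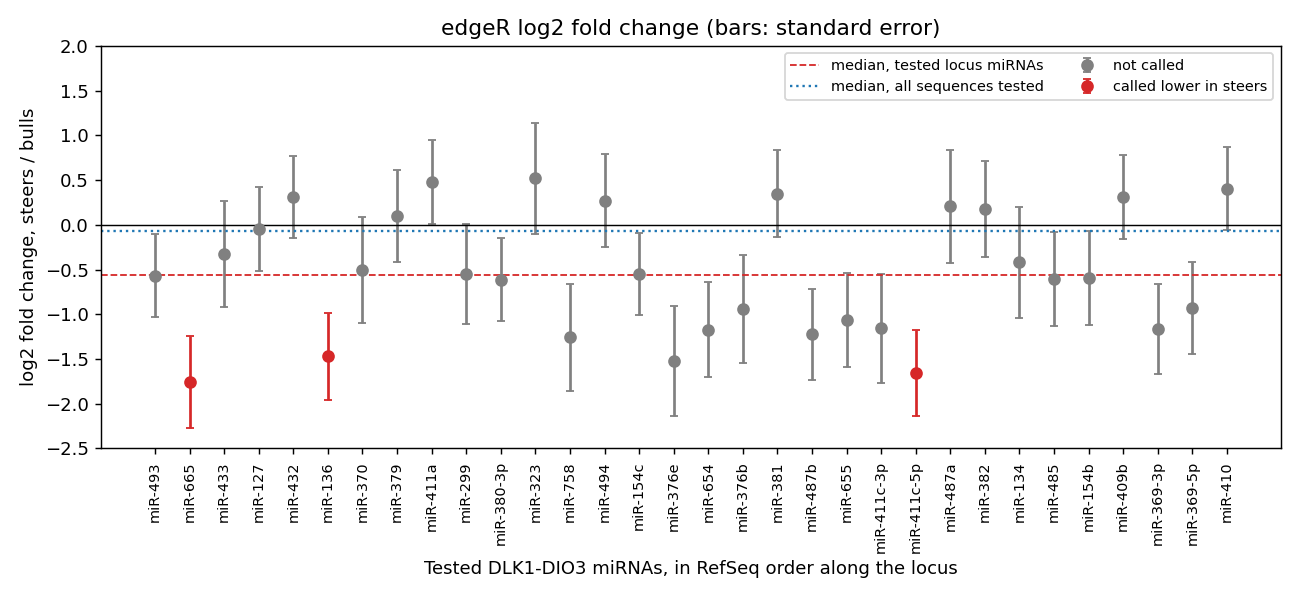
edgeR log2 fold change, steers over bulls, of the 32 tested locus miRNAs in RefSeq order, with bars of 1 standard error; the 3 called miRNAs are red and dashed and dotted lines mark the medians of the tested members (-0.56) and of all sequences tested (-0.07). The called members are not neighbours, and members of both signs are interleaved along the locus.

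A comparison inside each library needs no scaling between libraries. Per 1000 reads of miR-127, there were 1.85 and 2.03 reads of miR-665 in steers and 6.94 and 5.46 in bulls. For miR-411c-5p there were 3.14 and 3.44 reads in steers and 9.28 and 11.0 in bulls, and for miR-136 there were 3.66 and 2.43 against 9.15 and 7.19. The called members were thus fewer relative to miR-127 in both steers libraries than in either bulls library. miR-411a went the other way, with 886 and 986 reads per 1000 of miR-127 in steers and 702 and 568 in bulls. These ratios carry no test.

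**Figure D3:**
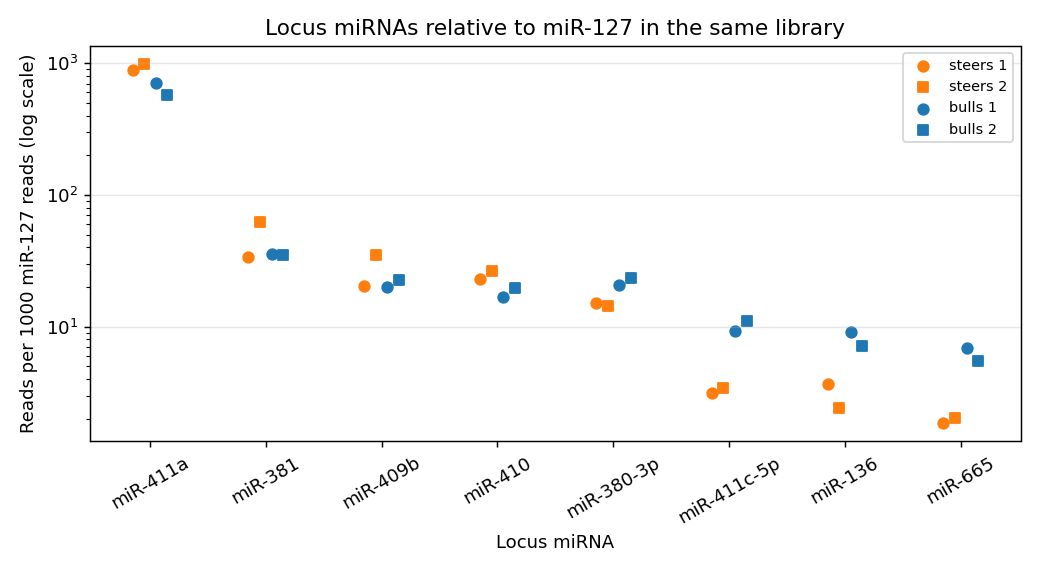
Reads of 8 named locus miRNAs per 1000 reads of miR-127 in the same library (log axis), for steers 1 and 2 (orange) and bulls 1 and 2 (blue). The steers points of miR-665, miR-411c-5p and miR-136 lie at 1.85 to 3.66 and the bulls points at 5.46 to 11.0, while those of miR-381 and miR-409b overlap.

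Among all 32 tested members, 22 had a negative and 10 a positive log2 fold change. The negative share was 68.8%, against 57.1% of the 364 other known miRNAs and 53.2% of all sequences. The median was -0.56, against -0.13 for the other known miRNAs and -0.07 for all sequences. The values ran from -1.75 to 0.52 with standard errors of 0.46 to 0.63. 10 members lay below -1, which is 31.2% of those tested against 15.1% of all sequences, and 0 lay above 1. Both steers libraries were below both bulls libraries in 17 members (53.1%, against 31.5% of all sequences), and above them in 7 (21.9%, against 26.7%), with overlap in the other 8. An unadjusted p under 0.05 was reached by 9 members, which is 28.1%, against 27.3% of all sequences tested. The median stayed negative in every setting, and the number of negative members was 18 of 33 without bulls 1 (median -0.20, against 0.08 for all sequences), 30 of 32 with total counts, 36 of 51 with no filter and 21 to 24 in the other settings. With total counts the median of all sequences was itself at -0.56. The negative share of all sequences was not counted for each setting.

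**Figure D4:**
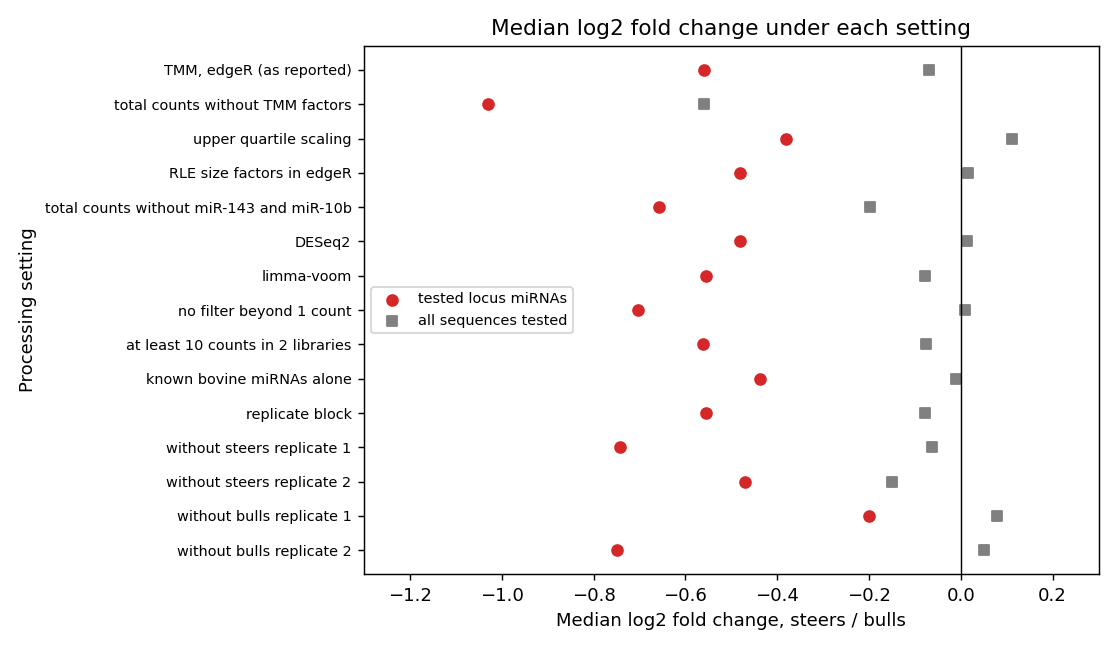
Median log2 fold change, steers over bulls, of the tested locus miRNAs (red circles) and of all sequences tested (grey squares) under each processing setting. The locus median lies below the median of all sequences in each of the 15 settings, from -1.03 with total counts to -0.20 without bulls 1.

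The 7 members with a mean of 50 CPM or more had a median log2 fold change of 0.31, with 3 negative and 4 positive. None was called by edgeR, DESeq2 or limma-voom. In the reported edgeR fit none of them had an unadjusted p under 0.05. The 25 members below 50 CPM had a median of -0.61, and the difference between these sets was not tested. Among the other known miRNAs the same division gave -0.11 and -0.14. miR-381 was at 194 and 289 CPM in steers and 225 and 153 CPM in bulls (log2 fold change 0.35). miR-409b was at 116 and 161 CPM in steers and 125 and 99.4 CPM in bulls (log2 fold change 0.31). In both, the groups overlapped and steers 2 was the highest library. miR-410 was at 131 and 122 CPM in steers and 105 and 86.0 CPM in bulls, without overlap (log2 fold change 0.41, SE 0.46, adjusted p = 0.5972, edgeR). The positive signs of these 3 turned with total counts, to -0.05, -0.11 and -0.06. miR-380-3p went in the opposite direction, with 85.5 and 66.8 CPM in steers and 129 and 103 CPM in bulls (log2 fold change -0.61, SE 0.46, adjusted p = 0.3853). The highest fold change among tested members was that of miR-323, at 2.69 and 1.75 CPM in steers and 1.59 and 1.50 CPM in bulls (log2 fold change 0.52, SE 0.62, adjusted p = 0.6136), on 62 counts in all.

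Below the called members, several had a low unadjusted p and no call. miR-376e had counts of 15 and 5 in steers against 36 and 23 in bulls (log2 fold change -1.52, SE 0.62, adjusted p = 0.08027, edgeR). Its steers libraries were both lower, but the 4 libraries together held 79 counts. Named after their values were seen, miR-487b was at -1.22 (adjusted p = 0.09029), miR-654 at -1.18 (adjusted p = 0.1249), miR-758 at -1.26 (adjusted p = 0.1488) and miR-655 at -1.06 (adjusted p = 0.1697). miR-487b had the most counts of these, with 101 and 105 in steers and 244 and 249 in bulls, and its replicates differed little within each group. The spread between replicates was not even across the members: bulls 1 was above bulls 2 in 28 of 32 (87.5%, against 82.1% of other known miRNAs), and steers 1 above steers 2 in 23. The median size of the log2 ratio between replicates was 0.34 in steers and 0.41 in bulls.

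Where both arms of a precursor were listed, they come from the same hairpin. The miR-369 arms were near each other in level, and the counts of the 3p arm were 151 and 85 in steers against 290 and 254 in bulls. The 5p arm had counts of 101 and 117 in steers against 207 and 218 in bulls. Both arms were lower in both steers libraries, with log2 fold changes of -1.16 (adjusted p = 0.1047, edgeR) for the 3p arm and -0.93 (adjusted p = 0.2211) for the 5p arm. The miR-411c precursor gave mostly its 5p arm, which took at least 90.3% of its reads in every library. Its 3p arm had counts of 15 and 9 in steers against 31 and 24 in bulls (log2 fold change -1.16, adjusted p = 0.1913), the same sign as the called 5p arm. Of miR-380, the 5p arm had 1 count in all against 3179 of the 3p arm.

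The near-identical miR-376 copies were low. miR-376b had counts of 17 and 9 in steers against 31 and 20 in bulls (log2 fold change -0.94, adjusted p = 0.301, edgeR). Together miR-376a, b, d and e had counts of 34 and 15 in steers against 75 and 48 in bulls, or 4.36 and 1.75 CPM against 9.92 and 5.15 CPM. This sum does not depend on how reads were divided among the copies, and its groups did not overlap. miR-487a, which differs from miR-487b at 3 bases, was at 1.92 and 1.75 CPM in steers and 1.46 and 1.72 CPM in bulls (log2 fold change 0.21), so the direction differed from that of miR-487b, a difference that was not tested. miR-382 overlaps miR-3578 on the opposite strand, and the miR-382 counts of 29 and 35 in steers against 28 and 30 in bulls may not be assigned with certainty.

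Position along the locus divided the members into 8 on the MEG3, RTL1 and MEG8 side and 42 in the miR-379/miR-656 cluster. On the MEG3 side 7 members were tested, with a median log2 fold change of -0.51, and miR-665 and miR-136 were called. In the cluster 25 were tested, with a median of -0.60, and miR-411c-5p was called. These calls are 28.6% and 4% of those tested, against 7.08% of all sequences called lower. They rest on 2 and 1 members, and the difference between the segments was not tested. On the MEG3 side, miR-493 was at 32.7 and 29.9 CPM in steers and 55.8 and 37.1 CPM in bulls (log2 fold change -0.57), and miR-432 at 43.5 and 54.1 CPM in steers and 42.6 and 36.1 CPM in bulls (log2 fold change 0.31), neither passing the test (adjusted p = 0.4275 and 0.6898, edgeR). miR-432 and miR-136 lie next to each other and had point estimates of opposite sign, a difference that was not tested.

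The 19 untested members had between 1 and 41 counts in all libraries together, 61 in steers and 120 in bulls. They were miR-431, miR-380-5p, miR-411b, miR-329a, miR-329b, miR-543, miR-495, miR-376a, miR-376c, miR-376d, miR-539, miR-544a, miR-544b, miR-154a, miR-496, miR-377, miR-541, miR-409a and miR-656. In 13 of them the mean CPM was higher in bulls. For several, such as miR-411b, miR-376a, miR-543 and miR-495, this rested on 1 or 2 counts in all. The share among all untested sequences was not computed. The largest count was that of miR-409a, with counts of 8 and 0 in steers against 26 and 7 in bulls. The precursor entries of miR-409a and miR-409b cover the same bases in RefSeq, so the reads of that stretch may not be assigned with certainty. miR-431, from the RTL1 antisense transcript, went the other way, with counts of 4 and 11 in steers against 1 and 2 in bulls. The untested members were left out by the filter on low counts. In a fit with no filter beyond 1 count edgeR called 0 of the 19, and 3 had an unadjusted p under 0.05. Of all 8303 sequences in that fit, 36 were called lower and 34 higher, and 494 had an unadjusted p under 0.05.

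Of 9 further miRNA numbers known at the human locus, 4 had a bovine entry. miR-1185 was tested, with counts of 15 and 15 in steers against 40 and 22 in bulls (log2 fold change -1.04, SE 0.58, adjusted p = 0.2325, edgeR). miR-1197 had counts of 1 and 5 in steers against 10 and 7 in bulls, and miR-412 and miR-1193 had between 0 and 2 in any library. Outside these numbers, miR-3578 and miR-3956 have genes in the same RefSeq stretch and were tested. Their log2 fold changes were 0.12 and 0.25 (adjusted p = 0.914 and 0.8297, edgeR). The sequence of miR-3578 overlaps that of miR-382 on the opposite strand, so the counts of these 2 may not be separate. Entries of human, mouse or rat miRNAs with the numbers of the locus added 58 sequences but 106 counts in all, the highest with 12.

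The mRNA libraries, 1 of each group, held 12677375 counts in steers and 9868415 in bulls. They have no replicates, so fold changes are given with a 95% Clopper-Pearson interval for counting error, scaled by median-of-ratios size factors, and with no test. Among 14540 genes with at least 10 counts, 11.4% were over 2-fold lower in steers and 6.44% over 2-fold higher. MEG3, the non-coding RNA at the start of the maternal transcripts, had 36 counts in steers against 93 in bulls (log2 fold change -1.49, interval -2.09 to -0.92). RTL1, a retrotransposon-derived gene of the paternal copy, had 15 and 30 counts (log2 fold change -1.12, interval -2.12 to -0.18). Whether counting used strand is not given in the sources used here, so RTL1 and the antisense transcript that carries miR-127 and miR-136 cannot be told apart. DIO3, the enzyme that inactivates thyroid hormone, had 170 and 109 counts (log2 fold change 0.52, interval 0.16 to 0.88), and WDR25, a neighbour of the locus, had 51 and 35 (log2 fold change 0.42, interval -0.23 to 1.09). DLK1, an inhibitor of adipocyte differentiation, had 0 counts in steers and 5 in bulls, at least 1.81-fold lower in steers with a floor of 3 counts for the steers library and the bulls count taken as exact. With counting error in both libraries, the upper limit of its log2 fold change was 0.004, so the interval reaches no change. BEGAIN had 0 and 1. MEG8, MEG9 and MIRG were not listed under those symbols. Of the 4 locus genes with at least 10 counts, 2 were over 2-fold lower in steers. Scaled by total counts, where the median of all genes moves from 0.01 to -0.23, MEG3 was at -1.73, RTL1 at -1.36, DIO3 at 0.28 and WDR25 at 0.18.

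**Figure D5:**
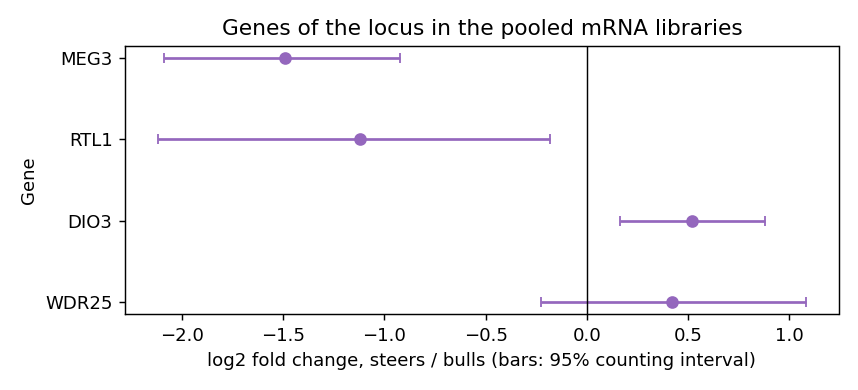
log2 fold change, steers over bulls, of the 4 locus genes with at least 10 counts in the 2 pooled mRNA libraries, with bars of the 95% counting interval. MEG3 and RTL1 lie below 0 over their whole interval, DIO3 above it, and the interval of WDR25 spans 0.

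Genes that make and carry miRNAs were also read from the mRNA libraries. Of 13 listed, 12 were in the table (AGO1 to AGO3 under older symbols) with a median log2 fold change of 0.11, and TNRC6B, a partner of Argonaute in silencing, was the only one past 2-fold, at -1.20 (104 and 220 counts). DROSHA, which cuts primary transcripts, was at 0.29, its partner DGCR8 at 0.61, the exporter XPO5 at 0.66 and DICER1 at 0.13. Of 5 factors that maintain imprints, UHRF1 was the only one past 2-fold, at -2.13 (30 and 121 counts). UHRF1 is also a gene of dividing cells. ZFP57, which holds imprints at many loci, was at -0.35, TRIM28 at 0.01, DNMT1 at -0.13 and CTCF at -0.15. Of 15 other imprinted genes 12 were in the table, with a median of 0.29. MEST was over 2-fold higher in steers (1892 and 717 counts, log2 fold change 1.28) and NNAT over 2-fold lower (690 and 2476 counts, log2 fold change -1.97), while H19 was at 0.32 and IGF2 at -0.03.

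Markers of several cell types moved between the groups in the same libraries. The mRNA sums below are CPM of total counts, a scaling in which the median of all genes was at -0.23. The 2-fold counts beside them use the median-of-ratios size factors, 1.0433 in steers and 0.9585 in bulls. In mRNA, the 6 T lymphocyte markers summed to 6.39 CPM in steers and 65.9 CPM in bulls, with 6 of 6 over 2-fold lower in steers and CD3G at 0 counts there, and the 6 myeloid markers to 1553 and 4017 CPM, with 4 of 6 over 2-fold lower. The 8 skeletal muscle markers summed to 2290 and 4071 CPM, with 1 over 2-fold lower and 1 higher, and the 8 adipocyte markers to 3210 and 4040 CPM, also 1 and 1. Fibroblast and stroma markers summed to 65289 CPM in steers and 39118 CPM in bulls, 2 of 6 over 2-fold higher. The 4 endothelial markers summed to 670 and 811 CPM with none past 2-fold. Before scaling, the adipocyte counts were 40693 in steers and 39865 in bulls, and the endothelial counts were 8500 and 8007. The size of the adipocyte and endothelial differences therefore depends on the scaling. Of the satellite cell markers, PAX7 was at 0 in both libraries, MYOD1 had 2 and 3 counts and MYF5 had 17 and 1. For the small RNA lists, calls stand beside 7.08% of all sequences tested called lower and 7.08% higher. The 7 muscle miRNAs summed to 2208 and 3377 CPM in steers and 5842 and 5394 CPM in bulls, with 2 of 6 tested called lower. The 5 immune miRNAs summed to 905 and 658 CPM in steers and 2600 and 1365 CPM in bulls, with 2 of 5 tested called lower. The 3 erythroid miRNAs summed to 3401 and 7360 CPM in steers and 2248 and 1757 CPM in bulls, with 1 of 3 tested called lower and 1 higher. Most of this was miR-486, at 3378 and 7347 CPM in steers and 2177 and 1705 CPM in bulls. miR-451 and miR-144 went the other way (log2 fold changes -1.79 and -1.94), and the median of the 3 was -1.79. The 6 stromal miRNAs summed to between 146750 and 347220 CPM in steers and between 82061 and 166950 CPM in bulls, with 1 of 6 tested called higher. That sum was mostly miR-143, at 334200 and 135880 CPM in steers and 144530 and 63300 CPM in bulls, and the median log2 fold change of the 6 was -0.31. The 6 epithelial miRNAs summed to 4.76 CPM or less in each library, and miR-141, the only 1 tested, was called lower. The part of these differences in the levels of the locus miRNAs was not tested.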

How the data were processed

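The deposited miRNA values are raw counts per sequence and library, made by the authors from small RNA reads (Illumina HiSeq). The paper describes matching to miRBase release 21, prediction of further bovine loci from the reads, and a search among rat, mouse and human miRNAs. The deposited mRNA values are raw counts per gene (Ion Proton). The methods name a bovine genome, whereas the submitters' processing notes name BWA and the human build GRCh37.p13, so the build is unsure and no coordinates are given. RefSeq, of another assembly, served only for gene order. Members and lists were chosen with earlier results of these data known.

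The whole miRNA table was fitted with edgeR 4.0.16 in R 4.3.3 (TMM, filterByExpr, quasi-likelihood, Benjamini-Hochberg over 1073 sequences, common biological coefficient of variation 0.339), without covariates. Alternatives were other scalings, filters and tools (DESeq2 1.42.0, limma 3.58.1 voom), a replicate block and each library left out. The script was tested on simulated data. Replicates differed by more than sampling noise. Named were the called members, the 6 most abundant, the 3 lowest and 3 highest in fold change, both arms of a precursor, untested members, and listed mRNA genes; others were chosen after their values were seen. mRNA intervals cover counting error only, as do the counts' floors, since reads carry no molecular identifiers.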

Additional observations from a re-analysis of the deposited data

How the results depend on the processing

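The members called lower in steers numbered 3 with TMM, RLE factors, DESeq2, limma-voom or a filter of 10 counts in 2 libraries, 2 (miR-665 and miR-411c-5p) with upper quartile scaling, with total counts less miR-143 and miR-10b or with no filter, 5 with known bovine miRNAs alone, 9 with a replicate block and 0 with total counts (1 sequence of all called, 15 members at an unadjusted p under 0.05). With total counts 298 of all 1073 sequences had an unadjusted p under 0.05 (edgeR). With 1 library left out the count ran from 0 to 3, while all sequences called lower numbered 14 without steers 1, 6 without steers 2, 41 without bulls 1 and 45 without bulls 2, and the fit without steers 1 called miR-409a, which has 0 counts in the remaining steers library. The lone library of a group is there assumed to vary like the other group. In the fits without steers 2 and without bulls 1, the member medians were -0.47 and -0.20, against -0.15 and 0.08 for all sequences. The known miRNAs alone added miR-369-3p and miR-487b, and the replicate block added these and miR-376e, miR-654, miR-655 and miR-758. With known miRNAs alone miR-411a was higher in steers (log2 fold change 0.65, adjusted p = 0.04705, edgeR) but below the fold threshold. Same-numbered libraries deviated together in part (r = 0.30 over all sequences, 0.46 over known bovine miRNAs, 0.23 over the members), but with 2 pairs and no label for a shared batch the numbers were not taken as a pairing. The block raised the calls over all sequences from 76 lower and 76 higher to 119 and 133. Over all sequences, total counts called 0 lower and 1 higher, no filter 36 and 34, total counts less miR-143 and miR-10b 44 and 38, known miRNAs alone 36 and 39, DESeq2 54 and 71, and limma-voom 54 and 58. The median log2 fold change of the members was -1.03 with total counts (all sequences -0.56), -0.75 to -0.20 with 1 library left out, and -0.70 to -0.38 otherwise. The median of all sequences was 0.11 with upper quartile scaling and -0.20 with total counts less miR-143 and miR-10b. The log2 ratio of the summed share, -0.31, was 0.10 without miR-143 and miR-10b in the denominator and -0.66 without miR-127 and miR-411a in the sum. miR-127 turned to 0.14 with upper quartile scaling, 0.031 with RLE factors and with DESeq2 and 0.093 with known miRNAs alone, and ran from -0.31 to 0.42 with 1 library left out. With total counts miR-381 turned to -0.046, miR-409b to -0.11 and miR-410 to -0.058. The cause of these changes was not tested. Members with 41 counts or fewer in all were tested only in fits with another filter or fewer libraries.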
